A study of Capra hircus with 6 samples.

Results

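In the goat cells studied here, 205 of the 20484 annotated genes had no read in any fibroblast library and at least 10 reads in every library of the induced cells. These genes, which went from no detected RNA to detected RNA, were taken by their ID (starting with "gene"), by 0 counts in CK1, CK2 and CK3, by 10 or more counts in each of 5i8d1, 5i8d2 and 5i8d3, and by a length of at least 200 bp. They made up 1.00% of the annotated genes and 0.822% of the 24950 features of the count table, which also holds assembled loci. Every annotated gene counted here had a count in at least 1 of the 6 libraries, so these shares leave out genes without any count. Because the counts themselves chose the genes, the difference between the groups is described below and not tested. The IDs of the table were not paired with gene symbols (0 of the IDs matched the RefSeq gene table), so neither the functions of the genes nor the markers of fibroblasts and mammary epithelium could be analysed here. At most 2 IDs are printed, and the other genes are called by their length.

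The CK group (BFRTV_0d in the labels) consisted of goat ear fibroblasts on day 0, and the 5i8d group (i58d and BFRTV_8d in the labels) of the cells called induced mammary epithelial cells after 8 days in the induction medium. The fibroblasts came from the ear margin of Guanzhong dairy goats aged 2 to 3 months. The medium contained the small molecules Forskolin, TTNPB, VPA, Repsox and Tranylcypromine, and the names 5i and BFRTV are taken here as the same medium. RNA depleted of rRNA was sequenced in 3 libraries of each group, of which the study used replicates 1 and 2. The labels describe colonies in the day 8 cultures and name no sorting step, so the libraries may hold a mixture of cells, and fewer expressing cells cannot be told apart from less RNA per cell. The replicates are called biological, but whether they were separate animals or separate cultures is not stated, and p-values therefore measure only the spread between these libraries.

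Fibroblasts are mesenchymal cells that make and remodel the extracellular matrix, whereas mammary epithelial cells form polarised sheets held by cell junctions, carry keratin filaments and secrete milk. Genes of another lineage are commonly kept silent in a differentiated cell by compact chromatin and by the lack of their activators, and related genes of such programmes often stand side by side on a chromosome. Several compounds of the medium act on these layers: VPA is an inhibitor of histone deacetylases and Tranylcypromine of a histone demethylase, while Forskolin increases cyclic AMP, TTNPB stimulates the receptors of retinoic acid and Repsox inhibits the type I receptor of TGF-β.

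The total counts lay between 28162284 in CK3 and 37544673 in 5i8d2. A count of 0 in a CK library allows up to 3 counts, which was 0.0850 to 0.107 CPM (counts per 1000000 counts of the library), so the genes were not detectable in fibroblasts at this depth and are not shown to be absent. This limit covers counting error only. The deviations of CK3 and 5i8d3 from their group means correlated at 0.67 over 17757 features, against 0.42 for replicate number 1 and 0.55 for number 2. The leading genes, the spread and the calls of neighbouring genes are also given without CK3 and 5i8d3.

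Few genes showed the opposite pattern. Only 6 annotated genes of at least 200 bp had 0 counts in each 5i8d library and 10 or more in each CK library, against the 205 described here. How many genes had 0 counts in each 5i8d library was not counted, nor how many had every CK library above every 5i8d library. The 6 genes therefore lack the bases given below for the 205. The limits were also uneven, since every CK library had a smaller total count (28162284 in CK3) than any 5i8d library (at least 35413856). In a smaller library 0 counts are easier and 10 counts harder to reach. The part of this in the contrast of 6 with 205 was not tested. Like the 205, another 1650 annotated genes of at least 200 bp had no CK count but under 10 in at least 1 5i8d library. Of these, 1419 stayed under 10 counts in all 3 5i8d libraries and 231 reached 10 counts in only 1 or 2 of them. The 205 genes were thus 11.1% of the 1855 genes without a count in the CK group and 1.42% of the 14390 genes of at least 200 bp with at least 10 counts in each 5i8d library. All of the 1855 had a count in at least 1 5i8d library, since genes with 0 counts in all 6 libraries were not listed. The 11.1% is therefore not a share of all genes silent in the fibroblasts. Of all annotated genes, 25.6% had every 5i8d library above every CK library in CPM, as the rule requires of the 205.

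Most of the genes were expressed at a low level on day 8. The median count was 60 in 5i8d1, 62 in 5i8d2 and 53 in 5i8d3, and the highest count was 1903, 2860 and 2911 in the same order. Expressed as FPKM (the count scaled to gene length and library size), the median was 0.758, 0.782 and 0.642, against 7.86, 7.54 and 5.94 over the annotated genes of at least 200 bp with at least 10 counts in each 5i8d library. The median of the 205 genes thus exceeded only 10.2%, 11.6% and 12.3% of those genes. In all, 79 genes had an FPKM of 1 or more in 5i8d1, 88 in 5i8d2 and 75 in 5i8d3, and 13, 12 and 7 genes had one of 10 or more.

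Together the 205 genes took 0.0875% of the counts in 5i8d1, 0.0931% in 5i8d2 and 0.0771% in 5i8d3. A small number of genes held much of this sum. The 10 genes with the highest mean counts accounted for 39.6%, 41.3% and 39.5% of it, and the top 3 for 16.6%, 21.6% and 22.2%.

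**Figure D1:**
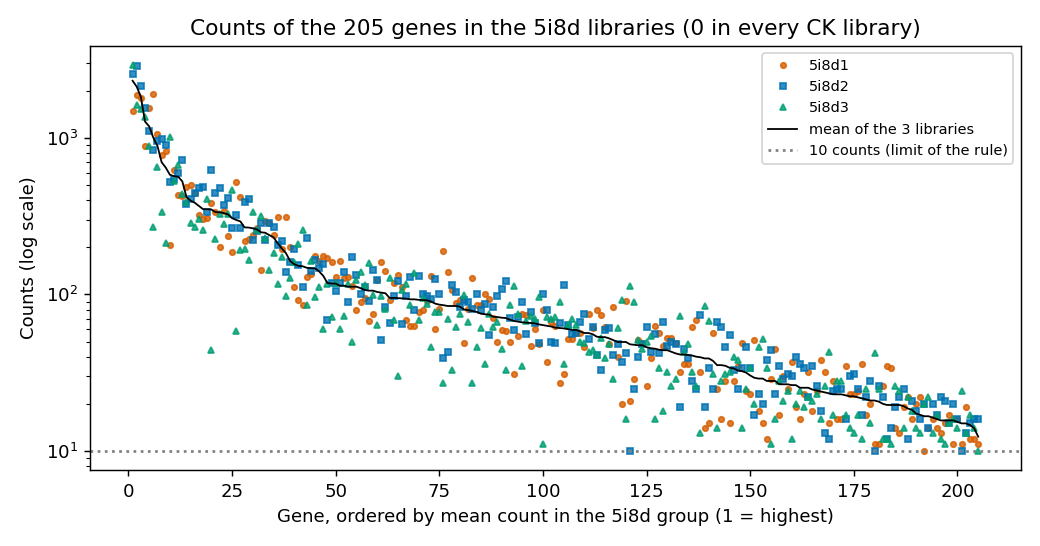
Counts of the 205 genes (y axis, log scale) in 5i8d1, 5i8d2 and 5i8d3, with genes ordered along the x axis by their mean count (black line) and the limit of 10 counts dotted. The highest counts reach 1903, 2860 and 2911, most genes lie under 100 counts, and the 3 libraries scatter around the mean at every level.

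The gene with the highest mean FPKM over the 3 5i8d libraries, gene13155, is also the shortest, with 310 bp. It had 208 counts in 5i8d1, 524 in 5i8d2 and 1012 in 5i8d3, or an FPKM of 18.8, 45.0 and 92.2 (mean 52.0 ± 37.2, SD, n = 3). Its level was highest in 5i8d3 and spread 4.91-fold over the libraries. Its first place rests on 5i8d3: over 5i8d1 and 5i8d2 its mean FPKM was 31.9, below the 44.6 of gene6983. Against 3 counts per CK library its level on day 8 was at least 174-fold higher.

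The second, gene6983, of 1208 bp, was far more even. It had 1810, 2147 and 1528 counts in 5i8d1, 5i8d2 and 5i8d3, and a mean FPKM of 41.7 ± 5.8 (SD, n = 3). It was at least 544-fold higher than the CK group by the same floor. Without CK3 and 5i8d3 these lower bounds were 116-fold for gene13155 and 630.2-fold for gene6983.

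The largest counts belonged to longer genes. A gene of 2993 bp had 1492, 2549 and 2911 counts in 5i8d1, 5i8d2 and 5i8d3, the highest mean count of the 205 genes, and was at least 691-fold higher than the CK group. A gene of 4620 bp had 1885, 2860 and 1620 counts in the same order and was at least 629-fold higher. Per length these genes stood lower than the leading 2, with a mean FPKM of 21.4 ± 6.9 and 12.6 ± 3.5 (SD, n = 3 each).

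The remaining genes among the 10 with the highest mean FPKM were between 404 and 1773 bp long. Genes of 1043 bp (627, 547 and 532 counts in 5i8d1, 5i8d2 and 5i8d3) and of 1110 bp (423, 720 and 438 counts) were similar in all 3 libraries. By contrast, genes of 498 bp (382, 620 and 44 counts) and of 1492 bp (822, 903 and 212 counts) were lowest in 5i8d3. So was a gene of 1773 bp, with 775, 988 and 335 counts. A gene of 404 bp, with 314, 139 and 97 counts, was highest in 5i8d1. The leading genes therefore did not share a common order of the libraries.

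Over all 205 genes, the level in the 5i8d group was at least 18.4 times that in the CK group at the median, computed per gene from CPM against 3 counts per CK library. This lower bound ranged from 3.66 to 691, and its median was 19.6 without CK3 and 5i8d3. It reached 10 in 146 genes and 100 in 20 genes. The bound rises with the count in the 5i8d group and with nothing else, since the CK counts are all 0.

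The spread of the genes between the 5i8d libraries was close to that of other genes at the median. In CPM, the highest of the 3 libraries exceeded the lowest by 1.83-fold at the median of the 205 genes, against 1.79-fold at the median of the 14185 other annotated genes of at least 200 bp with at least 10 counts in each 5i8d library. Restricted to the same range of mean counts (28 to 114, the 25th and 75th percentiles of the 205 genes), the medians were 1.97-fold over 106 of the genes and 2.10-fold over 1697 other genes. The spread stayed under 1.5-fold in 51 of the 205 genes (24.9%, against 31.5% of the other genes) and was 4-fold or more in 18 (8.78%, against 9.84%). Between 5i8d1 and 5i8d2 alone, the median difference was 1.39-fold for the 205 genes and 1.31-fold for the other genes. Of the 205 genes, 45.4% had their lowest level in 5i8d3, against 49.4% of the other genes. The rank correlation of FPKM over the 205 genes was 0.91 between 5i8d1 and 5i8d2, 0.82 between 5i8d1 and 5i8d3 and 0.87 between 5i8d2 and 5i8d3. These correlations run over genes, which are not independent replicates, and part of their size comes from the wide range of levels.

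The genes with the most even and the most uneven levels differed widely. A gene of 1833 bp had 91, 97 and 87 counts in 5i8d1, 5i8d2 and 5i8d3, one of 2057 bp had 24, 26 and 23, and one of 7825 bp had 49, 48 and 45. At the other end, the gene of 498 bp spread 13.3-fold, a gene of 7772 bp with 21, 10 and 113 counts spread 12-fold, and a gene of 2552 bp with 519, 320 and 58 counts spread 8.86-fold. The library that stood apart in these 3 genes was 5i8d3, which was low in 2 of them and high in the other.

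The median length of the 205 genes was below that of expressed genes in general and close to that of genes with a similar number of counts. Their median length was 2174 bp (25th percentile 1492 bp, 75th percentile 3685 bp), and the range ran from 310 to 9615 bp. The 14390 annotated genes of at least 200 bp with at least 10 counts in each 5i8d library had a median of 2994 bp (1858 to 4638 bp for the same percentiles). Within the range of mean counts from 28 to 114, the median was 2329 bp for 106 of the 205 genes and 2244 bp for all 1803 genes in that range. Of the 205 genes, 24 were shorter than 1000 bp and 30 longer than 5000 bp. These lengths are those behind the deposited FPKM, so they are lengths per gene and not of a transcript.

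**Figure D2:**
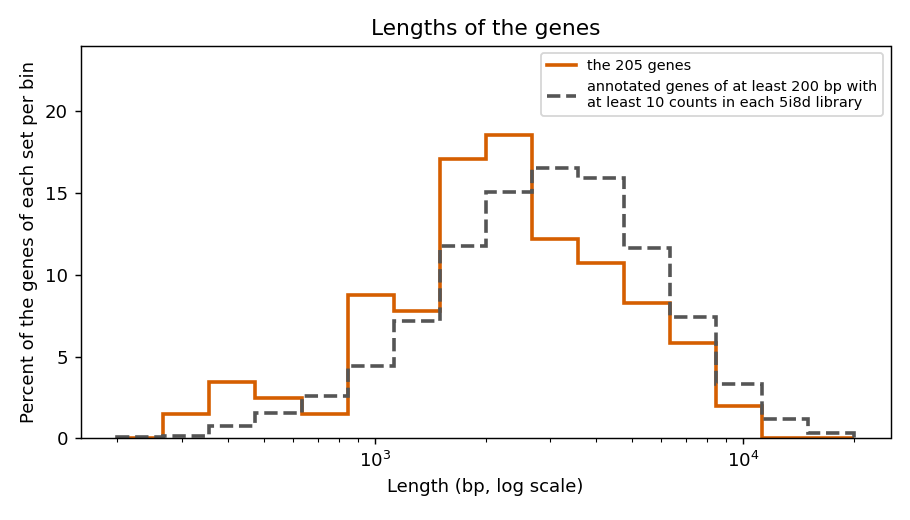
Length on a log scale (x axis) against the percent of genes per bin for the 205 genes (solid) and for the 14390 annotated genes of at least 200 bp with at least 10 counts in each 5i8d library (dashed). The solid line lies to the left, with medians of 2174 and 2994 bp, and 14 of the 14390 genes are longer than the 20000 bp shown.

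The shortest genes after gene13155 had 318 bp (79, 101 and 11 counts in 5i8d1, 5i8d2 and 5i8d3), 339 bp (35, 16 and 17 counts), 393 bp (15, 20 and 52 counts) and 394 bp (18, 23 and 46 counts). The longest had 9615 bp (54, 72 and 75 counts) and 9576 bp (45, 23 and 16 counts). They were followed by genes of 9193 bp (63, 49 and 72 counts), 8540 bp (59, 109 and 45 counts) and 8386 bp (71, 83 and 62 counts). With similar counts, the FPKM of the long genes was low, between 0.0809 and 0.236 on average over the libraries, and that of the short ones was 1.85 to 5.46.

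Several genes lay just at the limits of the rule. The lowest 5i8d count was exactly 10 in 5 genes and between 10 and 12 in 21 genes, and 37 genes without counts in the CK group were just outside with a lowest 5i8d count of 7 to 9. Their median length was 1829 bp inside the limit and 2176 bp outside it. On the side of the CK group, 110 genes with at least 10 counts in each 5i8d library were outside because of 1 single count, which was in CK1 for 55 of them, in CK2 for 48 and in CK3 for 7. Their median of mean 5i8d counts was 50.7. Among the excluded genes some were far more abundant than the 205, with a mean 5i8d count of up to 3859 for a single CK count and up to 10490 for 3 CK counts.

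Choosing the genes without 1 library showed how much each library decided. Without CK1 the rule gave 285 genes, of which 80 had counts in CK1, with 5 counts at most. Without CK2 it gave 291, of which 86 had counts in CK2, with 13 counts at most. Without CK3 it gave 223, of which 18 had counts in CK3, again with 13 counts at most. CK3 had 0.808 times the total count of CK1, and the part of this depth in the smaller number was not tested. Without 5i8d1, 5i8d2 or 5i8d3 the rule gave 229, 223 and 244 genes, and 1, 0 and 8 of them had no count in the library left out.

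Replicates 1 and 2, the libraries of the study, gave 265 genes by the same limits. CK3 and 5i8d3 played no part in this choice. In CK3, 244 of the 265 genes (92.1%) had 0 counts, against 7.08% of the 15642 annotated genes tested over the 4 libraries, and 1 of the 265 had 10 or more. In 5i8d3, 223 (84.2%) reached 10 counts. The level in CPM was higher in 5i8d3 than in CK3 for 256 of the 265 (96.6%), against 60.2% of the annotated genes tested. The annotated genes tested were not chosen for 0 counts in CK1 and CK2, as the 265 were. The 7.08% and 60.2% are therefore not like-for-like baselines, and much of the distance from them follows from the choice. Genes with 0 counts in CK1 and CK2, whatever their 5i8d counts, were not compared. The comparison also sets 1 library against 1 library without a replicate check, and the deviations of CK3 and 5i8d3 from their group means correlated. Of the 110 genes excluded for 1 single CK count, only 7 had it in CK3, so 0 counts in CK3 are weak evidence of silence.

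The genes were spread over the whole range of ID numbers, with some accumulation. The IDs of the annotated genes run from 1 to 28894, with gaps, and neither the labels nor the methods say in which order the numbers were given. Per 1000 numbers there were up to 15 of the 205 genes, with a median of 7 over 29 bins, and 1 bin, the incomplete last one, had none. The numbers from 4000 to 6999 held 43 of them among 2168 annotated genes, with 1.95% to 2.03% per 1000 numbers against 1.00% overall. The lowest share among the other bins was 0.175%, from 1 gene, between 27000 and 27999.

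**Figure D3:**
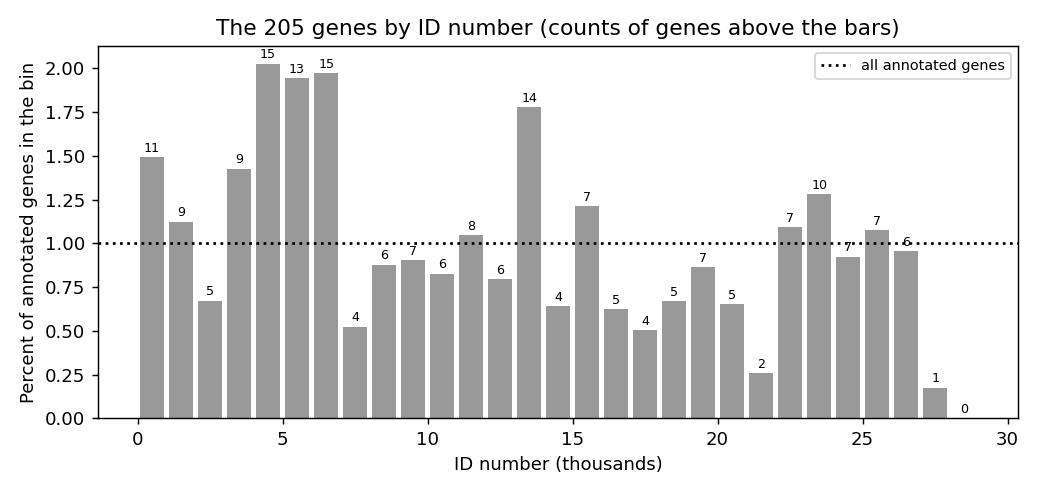
Percent of the annotated genes in each bin of 1000 ID numbers that belong to the 205 genes, with the number of genes above each bar and the overall 1.00% dotted. The bins between 4000 and 6999 and the bin from 13000 to 13999 stand highest, with 13 to 15 genes each.

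Some of the genes had consecutive ID numbers. In all, 18 of the 205 (8.78%) formed 9 pairs whose numbers differ by 1, and no run was longer than 2. The table held 300 of the places directly next to one of the 205 genes, and 6.0% of these places were taken by another of the 205, against 1.00% of all annotated genes. With differences of up to 5, 39 genes stood in 18 runs, and 2.94% of the places were taken. With differences of up to 10, 55 genes stood in 22 runs.

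Within the 9 pairs, the levels were close in some and far apart in others. A pair of 406 and 2269 bp was expressed alike per length, with a mean FPKM of 3.55 and 4.26. A pair of 394 bp (18, 23 and 46 counts in 5i8d1, 5i8d2 and 5i8d3) and 1844 bp (90, 100 and 139 counts) was highest in 5i8d3 and lowest in 5i8d1 for both genes, with a mean FPKM of 2.04 and 1.65. In contrast, the gene of 4620 bp with 1885, 2860 and 1620 counts stood beside one of 5212 bp with only 37, 80 and 72 counts, a 37.9-fold difference in mean FPKM. A pair of 2148 and 2237 bp differed 17-fold, with 13, 22 and 24 counts for the first and 305, 487 and 259 for the second. The ratio of mean FPKM within a pair was under 2 in 4 of the 9 pairs, over 4 in 3, and 2.66 at the median. The gene pair of 5401 bp (140, 43 and 70 counts) and 1097 bp (170, 69 and 116 counts) shared both its highest library, 5i8d1, and its lowest, 5i8d2. Over the 9 pairs, 6 shared the highest library and 3 the lowest. Of 9135 pairs of consecutive annotated genes with at least 10 counts in each 5i8d library, 37.0% shared the highest. The share for the lowest was not computed, and whether 6 of 9 pairs differ from 37.0% was not tested. For the 96 pairs with a neighbour called higher over the 4 libraries, described below, the share was 36.5%.

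**Figure D4:**
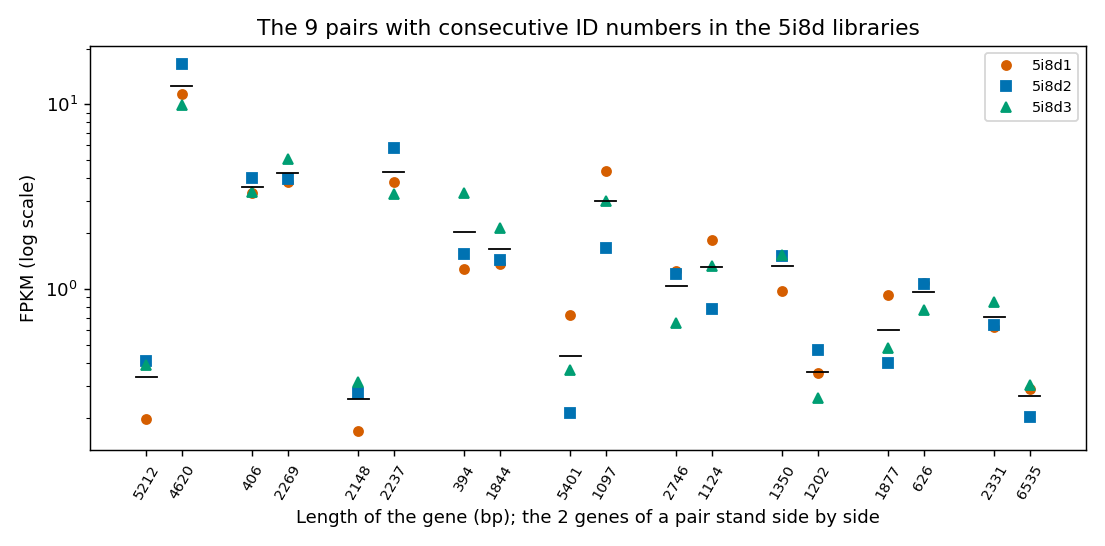
FPKM (log scale) of the 18 genes with consecutive ID numbers in 5i8d1, 5i8d2 and 5i8d3, with the mean as a bar, the 2 genes of a pair side by side, and the gene length in bp below. The pairs of 406 and 2269 bp and of 394 and 1844 bp lie at similar levels, whereas the pair of 5212 and 4620 bp differs 37.9-fold.

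The longest run with differences of up to 10 held 7 of the 205 genes within 27 numbers. They were 1851 to 3407 bp long and had a mean FPKM between 0.253 and 4.29, so all were of low to moderate level. The best expressed of them were the gene of 2237 bp and a gene of 2172 bp with 226, 409 and 167 counts in 5i8d1, 5i8d2 and 5i8d3. Between these 7 genes lay 11 other annotated genes, of which 9 had at most 3 counts over the CK group and 6 had every 5i8d library above every CK library. Another 2 were already well expressed in the fibroblasts and are named here for that reason, after their values were seen. A gene of 2399 bp had 6678, 6201 and 3111 counts in CK1, CK2 and CK3 and 195865, 240072 and 134993 in 5i8d1, 5i8d2 and 5i8d3. A gene of 2291 bp had 900, 742 and 449 counts in the CK group and 36423, 34416 and 23180 in the 5i8d group. How reads that match several similar genes were counted is not stated in the labels or methods, so low counts beside such abundant genes are uncertain.

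A similar arrangement surrounded the gene with the highest mean count. The gene of 2993 bp and another of the 205, of 3427 bp with 890, 1558 and 1366 counts in 5i8d1, 5i8d2 and 5i8d3, were 5 numbers apart, with 4 annotated genes between them. Of these, one of 2792 bp had 1 count in each CK library and 1545, 1648 and 1886 counts in the 5i8d group. One of 3051 bp had 1, 0 and 0 counts in CK1, CK2 and CK3 and 110, 194 and 206 in the 5i8d libraries, and one of 2170 bp had 0, 1 and 0 against 164, 227 and 213. The remaining one, of 1257 bp, had 4, 0 and 4 counts in the 5i8d group and none in the CK group. Thus 3 of these 4 genes missed the rule by 1 to 3 counts.

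Of the annotated genes next to the 205, a larger share was called higher in the 5i8d group than of annotated genes in general. These neighbours, which differ by 1 in ID number from one of the 205 and do not belong to them, were not chosen by the rule, so their change was tested. Over replicates 1 and 2 (4 libraries), 94 of the 187 neighbours tested (50.3%) had higher counts on day 8 and 22 (11.8%) had lower ones. The same test called 24.4% of the 15642 annotated genes tested higher and 17.1% lower, 41.5% in all (edgeR's quasi-likelihood test over all features, adjusted p under 0.05). Over all 6 libraries, 82 of 182 neighbours were higher (45.1%) and 16 lower (8.79%), against 18.8% and 10.9% of 15352 annotated genes, 29.7% in all. With the replicate number as a block, 7451 annotated genes changed in place of 4555, and 97 of the 182 neighbours were higher (53.3%, against 27.3% of the annotated genes) and 28 lower (15.4%, against 21.3%). Without 1 library, the number of lower neighbours was 10 (without CK1), 11 (CK2), 43 (5i8d1) and 41 (5i8d2) over the 4 libraries, and 9 over the 6 without CK1, CK2 or 5i8d2. A total of 81 neighbours were called higher in both comparisons. The median log2 fold change of the neighbours tested was 0.98 over the 4 libraries and 0.93 over the 6, against 0.06 and 0.05 over all annotated genes tested. The neighbours were not tested as a list, so these shares describe them and do not show that they differ from other genes.

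The share called higher was largest at a difference of 1 among the differences of 1 to 10, with no even decline beyond it. At a difference of 2, 34.8% of the genes tested were higher over the 4 libraries and 29.1% over the 6, at a difference of 7 these shares were 35.0% and 26.3%, and at a difference of 10 they were 26.3% and 20.2%. Neighbours before and after the 205 genes were alike, with 49.5% and 51.6% higher over the 4 libraries and 44.7% and 45.6% over the 6.

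**Figure D5:**
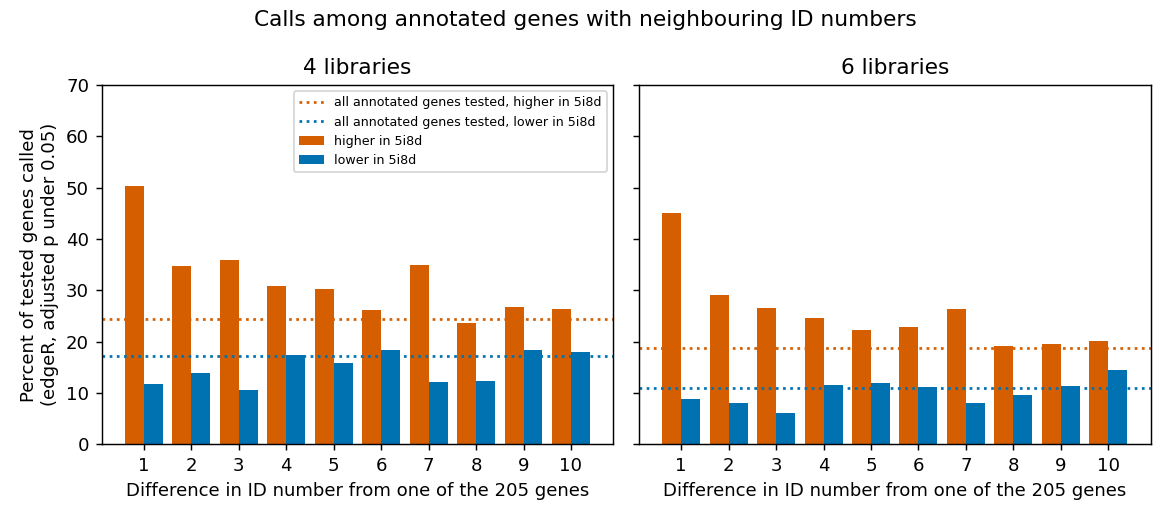
Percent of the annotated genes tested that were called higher (orange) or lower (blue) in the 5i8d group, by their difference in ID number from one of the 205 genes (x axis), over 4 and over 6 libraries, with the shares over all annotated genes tested dotted. The orange bars start at 50.3% and 45.1% at a difference of 1, above the dotted 24.4% and 18.8%, and reach 26.3% and 20.2% at a difference of 10.

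Many neighbours were without a count in the CK group. Of the 279 neighbours in the table, 66 (23.7%) had 0 counts in each CK library, against 9.97% of all annotated genes, and 138 (49.5%) had at least 10 counts in each CK library, against 64.7%. The share of neighbours called higher was about as large among those with a mean level of at least 1 CPM over the 6 libraries. Of these, 71 of 158 were higher (44.9%) over the 6 libraries, against 17.9% of the annotated genes at that level. Over the 4 libraries, 79 of 158 were higher (50%), against 23.1%. The mean includes the induced cells, so a neighbour almost without counts in the CK group can pass this limit. A neighbour with 0, 1 and 2 counts in the CK group and 3071, 3059 and 3750 in the induced cells did so. The limit therefore does not sort neighbours by their level in the fibroblasts. The share called higher among neighbours already expressed in the fibroblasts was not counted and can differ from the shares given. Genes next to any other annotated gene that was called higher were themselves higher in 34.2% of cases over the 4 libraries and in 28.7% over the 6. Whether the difference from the neighbours of the 205 genes exceeds chance was not tested.

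Seen from the 205 genes, 145 had at least 1 neighbour that could be tested over the 4 libraries and 141 over the 6. Of these, 86 (59.3%) and 74 (52.5%) had at least 1 neighbour that was higher, against 30.5% and 22.6% of the other annotated genes with at least 10 counts in each 5i8d library and a neighbour tested. The highest 5i8d library was the same in 35 of the 96 pairs of a gene with a higher neighbour over the 4 libraries (36.5%) and in 31 of 83 over the 6 (37.3%), close to the 37.0% of consecutive pairs given above. The kit was directional, but the strand setting of the counting is not stated, and reads of overlapping genes could have been assigned to one of the 205. The part of such reads was not tested.

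The genes around the leading 2 were not all higher. The number before gene13155 belongs to a gene of 2174 bp with 87, 92 and 30 counts in CK1, CK2 and CK3 and 96, 45 and 27 in 5i8d1, 5i8d2 and 5i8d3, with a log2 fold change of -0.57 (edgeR adjusted p = 0.507 over the 6 libraries). The number after gene13155 belongs to a gene of 4784 bp with 85, 105 and 64 counts in CK1, CK2 and CK3 and 4489, 4510 and 3903 in 5i8d1, 5i8d2 and 5i8d3. Its log2 fold change was 5.36 over the 6 libraries ± 0.25 (standard error), with an adjusted p of 9.99e-05 in the edgeR fit. It was lowest in 5i8d3 by count, whereas gene13155 was highest in 5i8d3. The number before gene6983 belongs to a gene of 4272 bp with 1, 1 and 0 counts in the CK group and 172, 163 and 121 in the 5i8d group, and the number after it to one of 6422 bp with 171, 153 and 93 against 3336, 3382 and 3373. Their log2 fold changes were 7.32 (standard error 0.64, adjusted p = 0.000344) and 4.31 (standard error 0.25, adjusted p = 0.000106) by the same test of edgeR over the 6 libraries. Over the 4 libraries the log2 fold changes of these neighbours were -0.55 and 5.35 beside gene13155 and 7.01 and 4.15 beside gene6983, and each of the last 3 was called higher there too. Both neighbours of gene6983 were thus higher in every 5i8d library than in every CK library.

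As the rule used this contrast, the calls of the 205 genes themselves carry no information. For completeness, 201 of them passed the filter on low counts over the 4 libraries and 200 over the 6, and all of those that passed were called higher, where 24.4% and 18.8% of the annotated genes tested were. The other 4 and 5 genes had too few counts to be tested.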

How the data were processed

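The 2 deposited tables were used: raw counts of reads for each annotated gene and each assembled locus, and the FPKM that the authors made from these counts. In the submitters' processing notes, FastQC 0.10.1 and HTSeq are listed beside DESeq2 1.16.1, whereas no aligner, strand setting or build is given in the sources used here. Count × 1e9 / (FPKM × total count) gave the same whole-number length in every library within 8.69e-10 bp. The members and comparisons were chosen with earlier results of these data known.

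Counts were tested with R 4.3.3 and edgeR 4.0.16 (filterByExpr, TMM, quasi-likelihood F test), and p-values were adjusted by Benjamini-Hochberg over all features, with a threshold of 0.05. This was done over replicates 1 and 2 as in the study and over all 6 libraries. DESeq2 1.42.0 served as an alternative. Standard errors were taken as |log2 fold change| / √F. The tests were first tried on simulated counts. CPM used the library totals, and figures were drawn with matplotlib 3.10.9. No replicate pair agreed within sampling noise (chi-square per degree of freedom at least 15.9).

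Deviations from the group means correlated at 0.42, 0.55 and 0.67 for replicate numbers 1, 2 and 3 over 17757 features (log2 CPM, prior count 2), which meets the rule used for calling samples paired. The fits were made without a block, and blocking on the replicate number is an alternative, given where it moves a count by over 1.5 times. This pairing is read from the data and not from the labels, and a shift shared by CK3 and 5i8d3 alone also makes the other numbers correlate. The 2 printed IDs are those with the highest mean FPKM over the 3 5i8d libraries. Others described by length are the 10 highest, the longest and shortest, the most even and uneven, and those in runs.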

Additional observations from a re-analysis of the deposited data

How the results depend on the processing

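The number of genes depended on the limits. It was 356 from 3 counts in each 5i8d library, 120 from 30, 88 from 50 and 40 from 100, and it was 343 with up to 1 count in each CK library, 449 with up to 2, and 315 with up to 1 over the group. Leaving out 1 library gave 223 to 291 genes and 18 to 28 genes with a consecutive member (28 without CK1 or CK2), and differences in number of up to 5 and 10 gave 39 and 55. The median length was 2160 to 2256 bp without 1 library, 2507.5 bp from 30 counts and 2786.5 bp from 100.

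The summed level in 5i8d1, 5i8d2 and 5i8d3 was 875, 931 and 771 CPM, and 730, 730 and 600.4 without the 3 genes with the highest counts. With DESeq2 size factors it was 770.1 in 5i8d1 and 827 in 5i8d2. The median lower bound of the fold was 16.3 on TMM sizes and 16.0 on DESeq2 size factors.

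Over the 4 libraries, 6489 annotated genes changed, 3028 of them at least 4-fold, and 3109 to 10785 without 1 library (3109 without CK1, 3305 without CK2, 10785 without 5i8d1, 10537 without 5i8d2). In these fits the group left with 1 library is given the spread of the other. Without a 5i8d library this is the spread of CK1 and CK2 (chi-square per degree of freedom 15.9). Without a CK library it is that of 5i8d1 and 5i8d2 (291). Over the 6, 4555 changed, 2689 by that fold limit, and 2931 to 4730 without 1 library (2947 without CK1, 2931 without CK2, 3019 without 5i8d2). With the replicate number as a block, 7451 changed over the 6 libraries. The cause of these shifts was not tested.

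Neighbours called higher numbered 70 to 119 over the 4 libraries and 61 to 86 over the 6 without 1 library, and 165 and 140 with differences of up to 2, 355 and 275 with up to 5. Those called lower numbered 10 to 43 over the 4 (10 without CK1, 11 without CK2, 43 without 5i8d1, 41 without 5i8d2) and 9 to 14 over the 6 (9 without CK1, CK2 or 5i8d2). They numbered 8 and 7 with the fold limit, 53 and 34 with differences of up to 2, and 144 and 92 with up to 5. With the replicate block over the 6 libraries 97 were higher and 28 lower, and over the 4 libraries the block moved no count of neighbours by over 1.5 times. The share of neighbours called higher exceeded that of all annotated genes under all 7 other fits of the 4 libraries (34.7% to 61.3%) and all 9 of the 6 libraries (29.7% to 53.3%), each set beside its own background. Restricting neighbours to at least 1 CPM, leaving out replicate 3 of both groups for the leading genes and the spread, and comparing with neighbours of other expressed genes were chosen after seeing the data. Depth limits the rule itself, since 0 counts in a single CK library allow up to 3, and absence from the fibroblasts is not shown.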
